A study of Mus musculus with 6 samples.

Results

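Nucleotide synthesis enzymes were followed in MB21, a line of mouse medulloblastoma cells mutant for Ptch, whose product holds hedgehog signalling in check. The genes were taken by symbol: Rrm1, Rrm2, Tyms, Dut, Tk1, Dck, Cad, Umps and Dhodh, 9 of the 55416 gene identifiers in the deposited table, and all 9 were found and tested. The DS38 group held 3 libraries of cells given DS-1-38, a derivative of benzarone, at 10 uM for 1 day, and the DMSO group held 3 libraries of cells given the vehicle for 1 day. Both groups carried the ptch mutant genotype and grew unattached in DMEM/F12 with B27. All libraries come from a single cell line, and the labels do not say whether replicates were separate cultures, so the tests measure the spread between these libraries, which may be technical. The series' design text names 5 days of treatment, whereas the title, sample names and treatment protocol give 1 day.

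Deoxynucleotides for DNA synthesis come from ribonucleotides, which ribonucleotide reductase converts, and from salvage of nucleosides by kinases. Pyrimidine rings are built by Cad, Dhodh and Umps, and Tyms makes the thymidine nucleotide that distinguishes DNA from RNA. Dut destroys dUTP so that uracil is not built into DNA and so supplies the substrate of Tyms. Genes of this kind are known as targets of E2F factors and are most active in cells entering and passing S phase, and medulloblastomas driven by hedgehog signalling arise from dividing granule cell progenitors of the cerebellum.

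Levels of 7 of the 9 genes were lower in DS38 than in DMSO, 1 was higher and 1 did not pass the test (edgeR's quasi-likelihood test, adjusted p under 0.05 over all genes tested). Over all 17679 genes tested, 11.7% were called lower and 12.9% higher in DS38, 24.5% in all. The share called was larger among more abundant genes. With a minimum of 5 CPM in 3 libraries, 1918 of 10604 genes were lower and 1931 higher, and 7 of the 9 enzymes were lower and 1 higher. The changes were small: the median log2 fold change of the 9 genes was -0.15, against 0.004 for all tested genes. Tyms fell by 18.5%, the furthest of the 9, and Dhodh was the gene that rose, by 16.8%. In 7 of the 9 genes every DS38 library was below every DMSO library, and in 1 every DS38 library was above. Over all tested genes the groups were separate in 38.6%, with DS38 lower in 17.9% and higher in 20.7%. The split of calls over all genes depended on scaling: 52.4% of calls were higher in DS38 with TMM scaling and 68.1% with library size alone, where 6 of the 9 genes were called lower and 1 higher. The median of all genes moved by less than 0.1 on the log2 scale under every scaling tried.

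**Figure D1:**
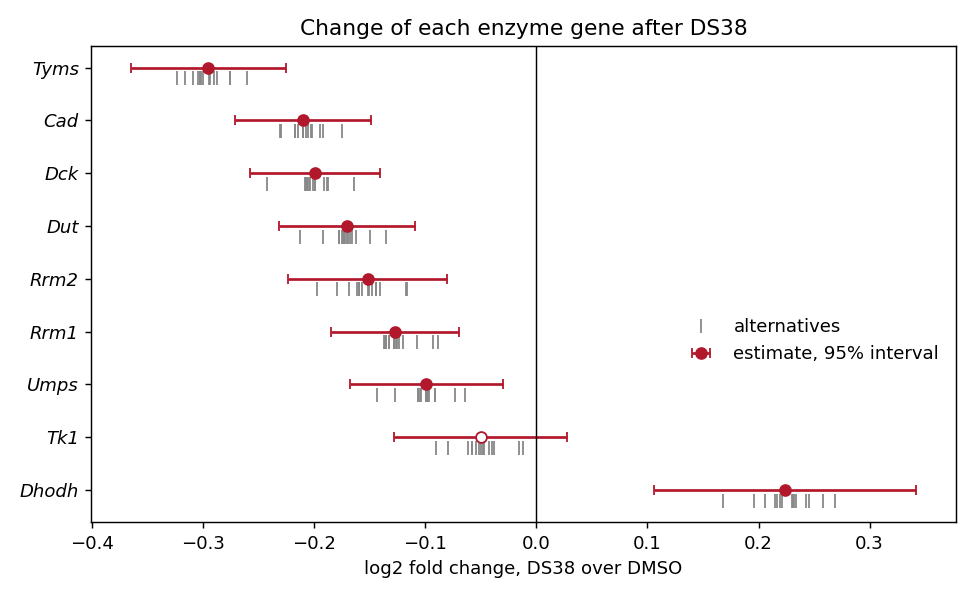
Log2 fold change of each enzyme gene, DS38 over DMSO (x axis), with its 95% interval (bar) from edgeR and the values under the 15 alternative settings (grey ticks below). Filled points passed at adjusted p under 0.05, the open point did not; Tyms lies furthest left at -0.30 and Dhodh furthest right at 0.22, and no grey tick lies on the other side of 0 from its estimate.

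Promoter windows are shown for the subunit pair Rrm1 and Rrm2, for Tyms, which changed most, and for Tk1, which did not pass. RefSeq sequences, matched by symbol on build GRCm38.p6, were found for 8 of the 9 genes, all but Dhodh. The authors' notes name GRCm39 for the mouse genome, so the positions below do not carry over to it. Each window runs from 250 bases before to 50 after the annotated start. Capitals mark matches, on either strand, to 5 motifs: the E2F core (TTCCCGC or TTCGCGC or TTGCCGC or TTGGCGC), the CCAAT box (CCAAT), the E-box (CACGTG), the GC box (GGGCGG) and the cell cycle homology region (TTTGAA). The Rrm1 window is chr7:102441445-102441744 (plus strand), Rrm2 chr12:24708004-24708303 (plus strand), Tyms chr5:30073576-30073875 (minus strand) and Tk1 chr11:117825965-117826264 (minus strand).
Rrm1: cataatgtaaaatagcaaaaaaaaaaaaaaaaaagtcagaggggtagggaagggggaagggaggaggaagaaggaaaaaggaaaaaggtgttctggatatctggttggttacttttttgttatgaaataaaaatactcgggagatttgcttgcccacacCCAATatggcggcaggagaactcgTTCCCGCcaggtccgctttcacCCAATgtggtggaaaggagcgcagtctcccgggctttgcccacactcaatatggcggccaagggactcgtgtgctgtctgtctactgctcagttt
Rrm2: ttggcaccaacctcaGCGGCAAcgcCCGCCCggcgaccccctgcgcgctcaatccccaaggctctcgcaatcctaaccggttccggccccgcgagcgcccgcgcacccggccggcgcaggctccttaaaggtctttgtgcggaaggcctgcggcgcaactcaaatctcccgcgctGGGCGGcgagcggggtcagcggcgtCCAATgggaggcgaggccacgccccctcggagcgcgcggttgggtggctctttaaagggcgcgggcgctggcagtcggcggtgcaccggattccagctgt
Tyms: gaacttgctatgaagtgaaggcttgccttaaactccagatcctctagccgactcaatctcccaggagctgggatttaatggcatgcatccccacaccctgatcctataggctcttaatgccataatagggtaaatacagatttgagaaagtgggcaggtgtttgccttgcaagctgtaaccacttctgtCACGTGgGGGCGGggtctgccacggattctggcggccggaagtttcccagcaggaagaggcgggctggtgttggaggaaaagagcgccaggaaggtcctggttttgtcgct
Tk1: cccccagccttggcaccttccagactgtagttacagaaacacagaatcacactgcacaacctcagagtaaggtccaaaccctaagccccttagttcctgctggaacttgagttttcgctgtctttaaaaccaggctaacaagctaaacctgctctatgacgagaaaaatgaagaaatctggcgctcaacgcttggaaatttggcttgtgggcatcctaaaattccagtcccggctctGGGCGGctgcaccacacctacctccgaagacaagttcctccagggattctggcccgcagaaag
The E2F core was present in 3 of the 8 windows (Rrm1, Rrm2 and Cad) and in 9.57% of 32851 promoter windows of the same length. The GC box was present in 7 of 8, all but Rrm1, against 35.7% of windows, and the CCAAT box in 2 of 8 (Rrm1 and Rrm2), against 37.4%. The E-box, the sequence bound by MYC, was found in Tyms alone among the 8 windows, with 1 base between it and a GC box, against 7.15% of windows. TTTGAA was found in Dck and Umps, against 17.9% of windows. The motifs share no letters with each other in the printed windows. These are matches of letters, not measured binding, and letters absent from a window say nothing of sites outside it. The 32851 windows were not matched to the 8 for GC content, which ran from 47% (Rrm1) to 75% (Dut) in the 8.

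Both tested subunits of ribonucleotide reductase that pair in dividing cells were lower in DS38. Rrm1 encodes the large subunit, which holds the catalytic site. It was at 505.3, 484.7 and 504.9 CPM (counts per 1000000 counts of the library, scaled by TMM) in DS38 libraries 1 to 3, against 540.1, 544.3 and 549.0 CPM in DMSO libraries 1 to 3. All DS38 libraries were below all DMSO libraries, and the log2 fold change was -0.13 ± 0.028 (SE; edgeR adjusted p = 0.00172). Rrm2 encodes the small subunit, which carries the tyrosyl radical and is known to be confined largely to S phase. It was at 80.1, 80.4 and 83.1 CPM in DS38, against 86.8, 94.5 and 89.4 CPM in DMSO. Again the groups did not overlap (log2 fold change -0.15 ± 0.035, SE; edgeR adjusted p = 0.00246). Rrm2b, the alternative small subunit that p53 is known to induce, was at 19.9, 20.97 and 22.2 CPM in DS38 and 20.8, 20.2 and 19.5 CPM in DMSO. Its groups overlapped and its log2 fold change, 0.06 ± 0.053 (SE), missed the threshold (edgeR adjusted p = 0.454).

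The balance of these subunits was read within each library, as ratios of counts per kilobase of the deposited gene length, which do not depend on scaling between libraries. The level of every such ratio depends on the gene lengths used, and the log2 difference between groups does not. The levels are therefore not read as proportions of subunits. Rrm2 to Rrm1 was 0.630, 0.659 and 0.654 in DS38 and 0.639, 0.690 and 0.647 in DMSO. The ratio overlapped between groups, with a log2 difference of -0.02 (exact two-sided permutation p = 0.70, n = 3 each), and that difference was 0.01 without DMSO replicate 2. Rrm2b to Rrm2 was 0.0755, 0.0791 and 0.0810 in DS38, against 0.0727, 0.0647 and 0.0663 in DMSO. Every DS38 library was above every DMSO library, by 0.21 on the log2 scale in the mean (exact permutation p = 0.10, adjusted over 4 ratios 0.20). With 3 libraries against 3, 0.10 is the smallest p this test can give, so none of the 4 ratios could pass.

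The largest change of the 9 genes was that of Tyms. Tyms, thymidylate synthase, methylates dUMP with a folate donor. It was at 72.1, 72.4 and 69.6 CPM in DS38, against 84.2, 89.9 and 88.7 CPM in DMSO. The highest DS38 library lay below the lowest DMSO library (log2 fold change -0.30 ± 0.034, SE; edgeR adjusted p = 1.44e-06), and it ranked at 198 of 17679 genes by p. Dut, the dUTPase, was at 170.4, 171.7 and 170.0 CPM in DS38 and 186.2, 191.7 and 198.5 CPM in DMSO. The DS38 libraries were close together and all below DMSO (log2 fold change -0.17 ± 0.030, SE; edgeR adjusted p = 1.99e-04). An annotated pseudogene, Tyms-ps, held 14 to 37 counts per library, against 3429 to 5929 for Tyms, so few reads were assigned to it. Of the 6 genes listed for thymidylate and dUTP, 3 were called lower and 0 higher (50% lower, against 11.7% of all tested genes). Dctd, Dtymk and Shmt1 of that list did not pass, with log2 fold changes of 0.13 ± 0.070, 0.08 ± 0.035 and -0.03 ± 0.031 (SE).

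**Figure D2:**
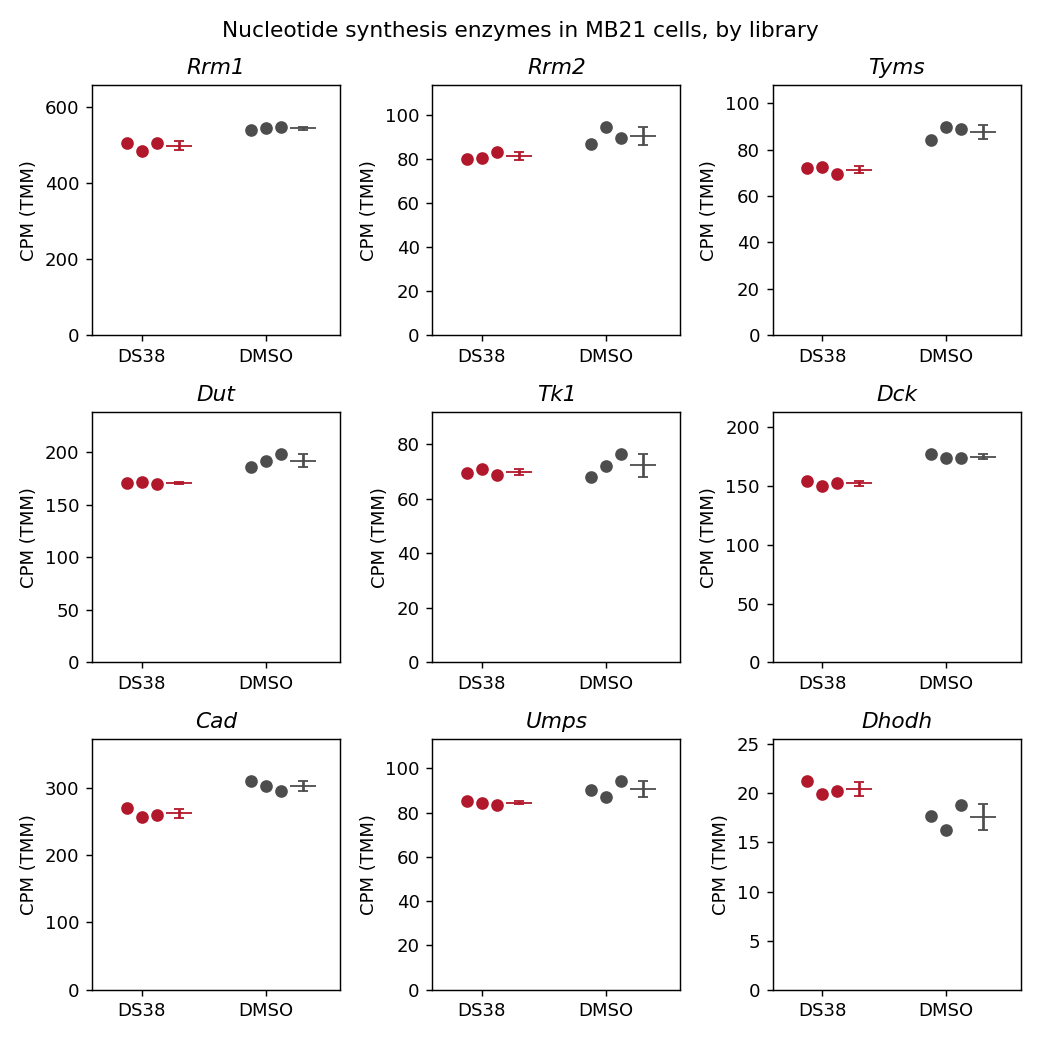
Level of each enzyme gene in each library (y axis, TMM-scaled CPM from 0), with DS38 (red, left) and DMSO (grey, right); dots are libraries and the bar beside them is the mean ± SD of 3. The groups are separate in 8 panels and overlap for Tk1, and Dhodh is the panel in which DS38 is higher.

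Of the salvage kinases for deoxynucleosides, Dck fell and Tk1 did not pass; the difference between their changes was not tested. Tk1, the cytosolic thymidine kinase that cells make for S phase, was at 69.4, 70.8 and 68.6 CPM in DS38, against 68.1, 71.9 and 76.4 CPM in DMSO. The DS38 libraries lay within the DMSO range, and Tk1 did not pass: the log2 fold change was -0.05 ± 0.038 (SE; edgeR adjusted p = 0.360) and its 95% interval ran from -0.13 to 0.03. Dck, deoxycytidine kinase, was at 153.9, 149.8 and 152.8 CPM in DS38, against 177.2, 173.5 and 173.5 CPM in DMSO. The spread between DMSO libraries was 1.22% of their mean, and the groups did not overlap (log2 fold change -0.20 ± 0.028, SE; edgeR adjusted p = 2.1e-05). The ratio of Tyms to Tk1, transcripts of the synthase and of the salvage kinase for thymidine nucleotides, was 0.887, 0.873 and 0.867 in DS38, against 1.06, 1.07 and 0.991 in DMSO. All DS38 libraries were lower, with a mean log2 difference of -0.24 (exact permutation p = 0.10, the smallest possible; adjusted 0.20). Overlapping genes lie across Tk1 on the opposite strand, Afmid with 862 and Gm20708 with 0 counts in all libraries together, against 25457 for Tk1.

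The enzymes that build the pyrimidine ring did not move together. Cad, the multifunctional protein of the opening steps, was at 269.4, 256.6 and 259.7 CPM in DS38, against 310.1, 303.2 and 295.5 CPM in DMSO. No DS38 library reached the DMSO range (log2 fold change -0.21 ± 0.029, SE; edgeR adjusted p = 1.91e-05). Dhodh, the mitochondrial enzyme that oxidises dihydroorotate and passes electrons to the respiratory chain, was at 21.3, 19.9 and 20.3 CPM in DS38, against 17.7, 16.2 and 18.8 CPM in DMSO. It was higher in every DS38 library (log2 fold change 0.22 ± 0.057, SE; edgeR adjusted p = 0.00578), but at 729 to 1725 counts per library it was the least abundant of the 9, and without DMSO replicate 2 it missed the threshold at a log2 fold change of 0.17 (edgeR adjusted p = 0.0565). Umps, which completes UMP, was at 85.1, 84.5 and 83.6 CPM in DS38, against 90.2, 86.9 and 94.2 CPM in DMSO.

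For Umps the groups were separate by a narrow margin (log2 fold change -0.10 ± 0.033, SE; edgeR adjusted p = 0.0321). The call was lost under 8 of 15 settings: it did not pass with library size alone (adjusted p = 0.167), without a low count filter (0.0575) or with the replicate number as a block (0.0531). It also did not pass without DS38 replicate 1 (0.0765), 2 (0.0920) or 3 (0.112), or without DMSO replicate 1 (0.0586) or 3 (0.0931). Cad to Umps was 1.35, 1.29 and 1.32 in DS38 and 1.46, 1.49 and 1.34 in DMSO, with a mean log2 difference of -0.11 (exact permutation p = 0.20, adjusted 0.27), and DMSO replicate 3 lay within the DS38 range.

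**Figure D3:**
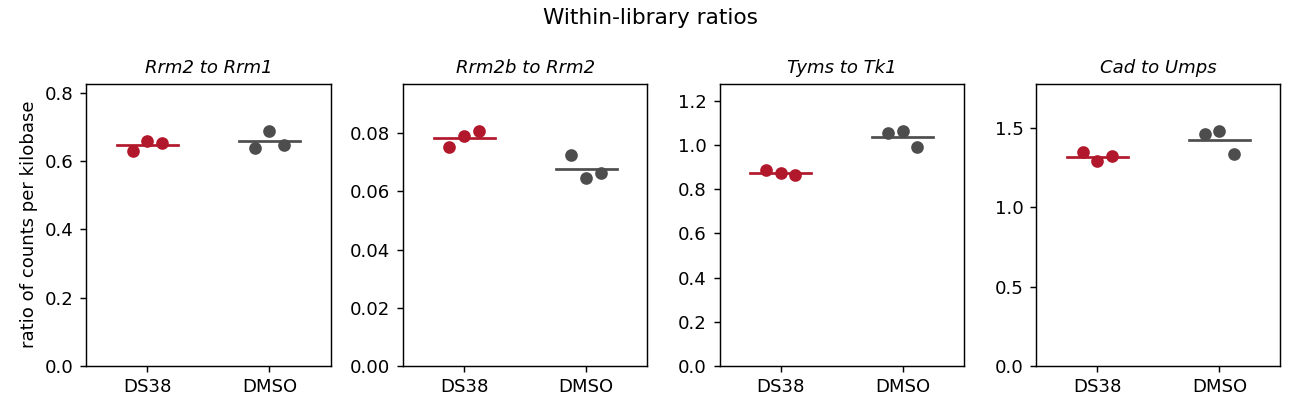
Ratio of counts per kilobase of deposited gene length, for 2 genes within each library (y axis, from 0), DS38 (red, left) and DMSO (grey, right), with lines at the means of 3. The groups are separate for Rrm2b to Rrm2 and Tyms to Tk1 and overlap for Rrm2 to Rrm1 and Cad to Umps.

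Levels can be compared between genes per kilobase. With the deposited gene lengths, the order of levels in DS38 was Dut (70.8 ± 0.391 CPM per kilobase, SD, n = 3), Rrm1 (45.3 ± 1.07), Dck (40.2 ± 0.557), Cad (32.0 ± 0.815), Rrm2 (29.3 ± 0.610), Umps (24.2 ± 0.211), Tk1 (13.4 ± 0.216), Tyms (11.7 ± 0.251) and Dhodh (3.24 ± 0.110). In DMSO the order was the same except that Tyms (14.4 ± 0.493) stood above Tk1 (13.9 ± 0.800), and those 2 overlapped between libraries there, whereas in DS38 all Tyms libraries were below all Tk1 libraries. The deposited length can exceed that of the main transcript: for Tk1 it was 3.61 times, for Dhodh 3.10 times and for Rrm1 2.76 times the longest principal coding transcript in GENCODE M21. Per kilobase of that transcript, Rrm1 came first (125 in DS38 and 136 in DMSO), Dut after it (87.5 and 98.5), and Tk1 (48.3 and 50.1) stood above Tyms (22.6 and 27.7) in both groups. Dhodh was lowest by either length. All 9 genes were above the median of tested genes in mean CPM, between the percentiles 56.0 for Dhodh and 98.8 for Rrm1.

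Across the rest of nucleotide metabolism, 72 further genes were counted in lists by role, and 64 could be tested, of which 5 rose and 5 fell (7.81% each, against 12.9% and 11.7% of all tested genes). Their median log2 fold change was 0.003. Without DMSO replicate 3, 8 rose and 7 fell, and 3 fell without DS38 replicate 2 or 3 or DMSO replicate 1; 3 fell with the replicate block, 2 with library size alone and 10 with a gene length correction. Apart from the 9 enzymes, none of the 3 others of the pyrimidine list passed. Ctps, CTP synthase, had a log2 fold change of -0.05 ± 0.027, with every DS38 library below every DMSO library, as in 17.9% of all tested genes. Cmpk1, UMP-CMP kinase, had one of -0.02 ± 0.031, which was 0.02 with library size alone. With a gene length correction, 3 genes of the whole pyrimidine list were lower, in place of 2.

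Among 11 other salvage genes 2 rose and 0 fell. Uckl1, a uridine-cytidine kinase homologue, was at 10.6, 11.2 and 10.3 CPM in DS38, against 7.37, 8.47 and 8.40 CPM in DMSO, a separation in every library (log2 fold change 0.40 ± 0.074, SE; edgeR adjusted p = 3.81e-04). Dguok, the mitochondrial kinase for deoxyguanosine, rose by 0.20 ± 0.055 on the log2 scale, a call lost without DS38 replicate 1 (edgeR adjusted p = 0.0506) and after thinning to equal depth (0.0524).

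In purine synthesis, 1 gene rose and 3 fell of 14 tested. Prpsap2, a protein associated with PRPP synthetase, was at 51.6, 52.5 and 53.5 CPM in DS38 and 46.5, 45.0 and 46.0 CPM in DMSO (log2 fold change 0.20 ± 0.036, SE; edgeR adjusted p = 3.00e-04). Prps2, a PRPP synthetase, fell by 0.13 ± 0.032 on the log2 scale. Ppat, which catalyses the committed step, and Paics, a later bifunctional enzyme, fell by 0.09 ± 0.028 and 0.09 ± 0.029. Ppat did not pass without DMSO replicate 1 or 2 or any DS38 replicate (edgeR adjusted p between 0.0572 and 0.119), nor with the block (0.0567) or without a filter on low counts (0.0721), and Paics not without DS38 replicate 2 (0.147) or 3 (0.118), nor with the block (0.0502). Both were also lost with library size alone (0.152 and 0.155).

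Of 12 tested nucleotide kinases 0 passed with edgeR, and 0 with DESeq2 and limma-voom, whereas some did under other edgeR settings: 1 rose with library size alone, 1 fell with a minimum of 5 CPM in 3 libraries, 1 rose and 1 fell without DMSO replicate 3, and 2 fell with a gene length correction. The smallest p-values belonged to Ak4 (log2 fold change -0.09 ± 0.035; edgeR adjusted p = 0.0685) and Guk1 (0.14 ± 0.062; 0.110). Nme3 had 0 counts over the 6 libraries together, so up to 0.00831 CPM of counted reads would have been missed. Reads that the counting left out lie outside that floor, so the 0 does not show that Nme3 was silent. Nme1 and Nme2 are near copies, and the division of reads between them is uncertain. Among 15 tested genes of breakdown and pool cleaning, Dpyd, which degrades pyrimidines, rose by 1.23 ± 0.29 on the log2 scale but lay at 0.827 ± 0.201 CPM in DS38 and 0.359 ± 0.0849 CPM in DMSO (SD, n = 3). Nt5c2, a cytosolic nucleotidase, fell by 0.11 ± 0.031, a call lost without DS38 replicate 2 or 3 or DMSO replicate 1 (edgeR adjusted p = 0.0664, 0.0718 and 0.0502), with library size alone (0.0815) and with a gene length correction (0.102). Samhd1, which hydrolyses dNTPs, was at 67.3 ± 1.46 CPM in DS38 and 70.4 ± 0.744 CPM in DMSO and did not pass (edgeR adjusted p = 0.155). Of the genes listed under nucleoside transport, Slc29a4 rose, at 80.3, 79.6 and 79.3 CPM in DS38 against 66.0, 63.0 and 73.1 CPM in DMSO (log2 fold change 0.25 ± 0.041, SE, edgeR adjusted p = 1.27e-04). The 3 others tested, among them Slc29a1 and Slc29a2, did not pass, and which substrates these proteins carry was not tested.

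**Figure D4:**
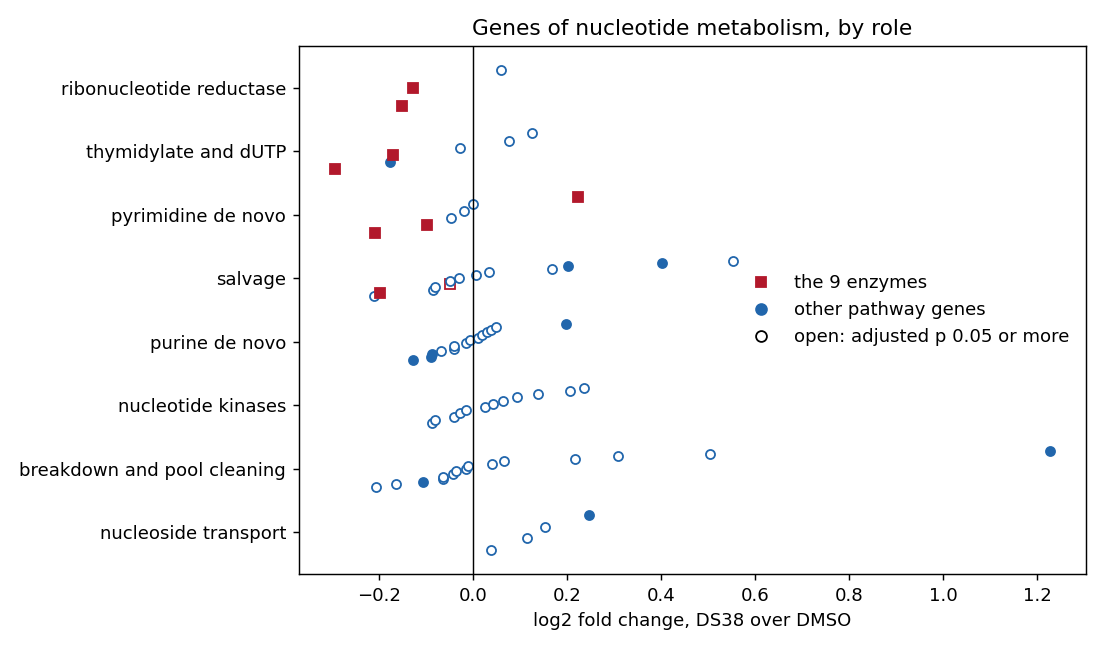
Log2 fold change, DS38 over DMSO (x axis), of each tested gene of nucleotide metabolism in lists by role (rows); red squares are the 9 enzymes, blue circles other genes, and filled symbols passed at adjusted p under 0.05. Of 12 filled symbols left of 0, 7 are enzymes of the 9, and the far right point is Dpyd at 1.23.

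Most listed genes of S phase entry and DNA replication moved with the enzymes: of 18, 0 rose and 14 fell, with a median log2 fold change of -0.15. The share called lower was 77.8%, against 11.7% of all tested genes, of which 12.9% were called higher. With a minimum of 5 CPM in 3 libraries, 14 of the list were lower, against 1918 of all 10604 genes then tested. Like the others, this list was chosen with earlier results of these data known. Ccne2, cyclin E2, was at 66.4, 66.6 and 69.8 CPM in DS38, against 92.6, 90.5 and 88.4 CPM in DMSO, and the repressors E2f7 and E2f8 had log2 fold changes of -0.32 ± 0.036 and -0.27 ± 0.032. The summed level of the list was 4104 to 4151 CPM in DS38 and 4421 to 4541 CPM in DMSO. In bulk RNA, fewer cells in S phase and less of these transcripts per cell cannot be told apart, and their part in the enzymes' change was not tested. E2f1 (log2 fold change -0.07 ± 0.035), Cdt1 (0.03 ± 0.035), Mcm6 (-0.03 ± 0.027) and Prim1 (-0.05 ± 0.036) did not pass.

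Over the 6 libraries, the genes with profiles nearest to Tyms among 9982 genes at 5 CPM or more were Map2k7, Cyb561d1, Ndufaf2, Clspn and Gpsm1, with root mean square differences of 0.0216 to 0.0295 in centred log2 CPM. They were chosen for this likeness, so their changes (log2 fold change -0.25 to -0.31) are a description. Of the enzymes, Dck (0.0662), Cad (0.0670) and Dut (0.0674) were nearest to Tyms, and Dhodh was furthest (0.271).

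Total depth differed between the groups without overlap, at 60434089 to 84044428 counts in DS38 and 38840296 to 50014681 in DMSO. The DMSO libraries also differed more among themselves. For pairs of libraries, chi-square of the counts over its degrees of freedom was 8.57 to 9.61 in DMSO and 2.91 to 3.56 in DS38. The edgeR fit used the same dispersion of a gene for both groups. Thinned to the smallest total, 7 of the 9 enzymes were still called lower and 1 higher. The first principal component separated the groups, and on the second DMSO replicate 3 stood apart; without it 6 of the enzymes were lower and 1 higher, Umps being the one lost. Markers of the granule cell lineage were present, and all 8 were tested. Their sum was 2026 to 2047 CPM in DS38 and 1969 to 2027 CPM in DMSO. Within it 3 were called higher and 3 lower, 37.5% each, against 12.9% and 11.7% of all tested genes. Log2 fold changes were 0.33 ± 0.028 for Atoh1, 0.27 ± 0.030 for Barhl1 and 0.11 ± 0.028 for Meis1. They were -0.37 ± 0.036 for Neurod1, -0.14 ± 0.029 for Zic2 and -0.10 ± 0.030 for Zic1. Pax6 and Cntn2 did not pass, though for both every DS38 library was below every DMSO library. By library, the groups were separate in all 8 markers, with DS38 higher in 3 and lower in 5, against 20.7% and 17.9% of all tested genes. Endothelial (0.693 to 0.827 against 0.465 to 1.00 CPM), microglial (1.42 to 1.96 against 1.55 to 1.73) and fibroblast markers (1.84 to 2.17 against 1.15 to 1.34) were near 0 in sum, with Kdr and Cldn5 at 0 counts. Both tested fibroblast markers of 5 lay higher in every DS38 library: Col1a1 rose, at 0.822 ± 0.258 CPM in DS38 and 0.373 ± 0.168 CPM in DMSO (SD, n = 3; edgeR adjusted p = 0.0122), and Lum, at 1.09 ± 0.237 and 0.716 ± 0.0782 CPM, did not pass (0.0637). Summed astrocyte markers, mostly Slc1a3, were at 142 to 148 CPM in DS38 and 143 to 151 CPM in DMSO, where Aqp4 had 3 counts in all, and oligodendrocyte lineage markers, mostly Pdgfra, at 95.6 to 97.7 and 95.2 to 96.0 CPM. In each of these lists 1 marker rose: Gfap, of 2 astrocyte markers tested, was at 5.40 ± 0.333 CPM in DS38 and 4.33 ± 0.241 CPM in DMSO (log2 fold change 0.32 ± 0.096, SE; edgeR adjusted p = 0.0179), and Olig1, of 5 oligodendrocyte lineage markers tested, at 22.8 ± 1.23 and 19.9 ± 0.480 CPM (0.20 ± 0.052; 0.00799). The DS38 and DMSO libraries did not overlap for Gfap or Olig1. The part of these markers in the enzymes' change was not tested.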

How the data were processed

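RNA was counted in 6 libraries. The authors deposited whole-number read counts per gene in 1 table that also lists gene lengths. The tools named per the submitters' processing notes are edgeR, R 4.1.0, Subread 2.0.3, STAR 2.7.9a and featureCounts, and the builds are GRCh38.p13 and GRCm39. Their roles, the strand setting and the treatment of multiply mapped reads were not stated, so reads of overlapping or near-identical genes cannot be assigned with certainty. Symbols came from GENCODE M21 (52083 of 55416 identifiers matched), with 0.345% of counts left unmatched.

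From the counts, genes were kept by filterByExpr (minimum count 10, total 15) and scaled by TMM. The DS38 and DMSO groups were compared in edgeR 4.0.16 (R 4.3.3, limma 3.58.1, DESeq2 1.42.0), two-sided quasi-likelihood test, Benjamini-Hochberg over 17679 genes, threshold 0.05. Levels are CPM with SD, and fold changes are log2 with SE. Ratios used exact permutation. Figures used Python 3.11.15 and matplotlib 3.10.9. Floors for 0 (3 counts) and intervals cover sampling error of the counts or libraries only.

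The 9 genes and all lists were chosen with earlier results of these data known. Named were, per list, the 4 genes of smallest adjusted p in each direction (2 where none passed), with Rrm2b and Samhd1 always, the 3 smallest p of the S phase list, and the 5 nearest profiles to the enzyme of smallest p, leaving out Gm-number and Rik symbols; the 4 S phase genes that did not pass were named after their values were seen. A gene so chosen is not reported here. Alternatives were DESeq2, limma-voom, RLE scaling, library size alone, no filter, 5 CPM in 3 libraries, the replicate block, thinning and leaving out each library; a gene length correction and the transcript lengths were added after seeing the data.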

Additional observations from a re-analysis of the deposited data

How the results depend on the processing

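No enzyme changed direction under the 15 settings run for each. Rrm1, Rrm2, Tyms, Dut, Dck and Cad passed under all 15, with log2 fold changes between -0.32 and -0.26 for Tyms and between -0.14 and -0.09 for Rrm1, and Tk1 passed under none (edgeR, limma-voom or DESeq2 adjusted p 0.0953 to 0.836). Leaving out each library gave 0 to 1 enzymes higher (0 without DMSO replicate 2, where Dhodh was lost), 6 to 7 lower, 4 to 8 other pathway genes higher and 3 to 7 lower. It gave 3212 to 4911 calls over all genes. Other pathway genes lower numbered 5 as reported, 2 with library size alone, 3 with the replicate block and 10 with the gene length correction, chosen after seeing the data; the cause was not tested. The log2 difference of Rrm2 to Rrm1 ranged from -0.045 to 0.011 over the libraries left out and turned above 0 without DMSO replicate 2; the other 3 ratios kept their sign. Deviations of same-numbered libraries from their group means had correlations of 0.058, 0.014 and -0.087. Differently numbered libraries ranged from -0.10 to 0.090. With 3 libraries per group these values cannot show whether same-numbered libraries were prepared together, which the labels do not say. With the replicate block, 4010 genes were called in place of 4340, 1 enzyme was higher and 6 lower, since Umps was lost (log2 fold change -0.10, adjusted p = 0.0531). Dhodh held 729 counts in its shallowest library, and Dpyd 239 counts in all libraries together.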
